A study of Mus musculus with 2 samples.

Results

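Mouse miRNA genes whose symbol begins with Gm are predicted gene models with no Mir symbol in the annotation used, although some have a catalogued mature miRNA. In hippocampal tissue (labelled as a layer of hippocampus) from B6CASTF1/J females, a cross of the C57BL/6J and CAST/EiJ strains, 45 of 967 such genes had at least 1 read in the sense orientation over 2 small RNA libraries. The 45 genes were chosen by their symbol and by their measured sense counts, at least 1 read summed over both libraries, from the 2202 miRNA genes of the GENCODE M21 annotation. Another 54 genes named in the same way were left out by position: 6 in the imprinted Dlk1-Dio3 region of chromosome 12 and 48 inside Sfmbt2. The mice were 36 days old, no treatment was given in the labels, and both libraries (biological replicates 1 and 2, inserts under 30 nucleotides) formed 1 group. The labels give both libraries different biosample entries and 1 donor entry, so it is not settled whether they are separate animals, and p-values cover only the difference between these libraries, which may be technical.

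A miRNA is cut from a hairpin in a longer RNA by Drosha and its partner Dgcr8, and again by Dicer, into a mature RNA of about the length of the inserts. The seed, bases 2 to 8 of the mature RNA, pairs with the messenger RNAs that it represses. Hairpins are common in RNA, and prediction from sequence and folding can take up parts of other structured RNAs, such as the small nucleolar RNAs (snoRNAs) that guide modification of ribosomal RNA, the 7SL RNA of the signal recognition particle, and transfer RNAs.

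The count tables held 2928141 sense reads on miRNA genes in replicate 1 and 3644157 in replicate 2. One read was thus 0.342 CPM (counts per 1000000 sense reads on miRNA genes) in replicate 1 and 0.274 CPM in replicate 2, and a count of 0 allows up to 3 counts, which are 1.02 and 0.823 CPM. Reads with several equally good places, 38.9% and 45.8% of the tables' reads, were counted apart from genes. The tissue label was checked on known miRNAs: 9 markers of neurons, glia and endothelium lay between 1127 CPM (Mir219a-2) and 14516 CPM (Mir126a), with neuronal Mir137 at 9112 and 12631 CPM. Muscle Mir1a-1 and Mir133a-1 and pluripotency Mir302a had 0 reads. These zeros do not show absence, because reads that fit several places equally well were counted apart. Mir1a-2 and Mir302b, of the same families, did have sense reads. Liver Mir122 was at 37.9 and 43.9 CPM. The blood markers were Mir451a, at 1039 and 270.0 CPM, and Mir142, at 57.4 and 64.8 CPM. Intervals and limits cover counting error only.

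The sequences below carry the main observations. They are written 5′ to 3′ on the strand of the gene, hairpins as DNA from the GENCODE M21 transcripts (GRCm38, which is mm10) and mature miRNAs as RNA from RefSeq (GRCm38.p6). Of the 45 genes, 6 matched a RefSeq hairpin entry under their own symbol. Their mature sequences are shown with the seed in capitals, because these genes are the ones with a catalogued product, and no seed is shared among them.
Gm23450, mmu-miR-935: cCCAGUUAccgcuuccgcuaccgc
Gm22650, mmu-miR-3552: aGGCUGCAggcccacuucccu
Gm23363, mmu-miR-3154: cAGAAGGGgagucgggagcgga
Gm38670, mmu-miR-9769-5p: aGGCACAGaauuaggcccgacc
Gm38670, mmu-miR-9769-3p: uAGGGUCUguucuguguccucc
Gm24572, mmu-miR-3618-5p: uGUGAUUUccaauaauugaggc
Gm24572, mmu-miR-3618-3p: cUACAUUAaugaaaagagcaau
Gm38671, mmu-miR-9768-5p: uGGCACUCggaggacggcacugu
Gm38671, mmu-miR-9768-3p: aCUGCCUUccuuuguguggcccag

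Gm23450 (ENSMUSG00000094210.1) held nearly all of the reads. Its sense reads numbered 2118 and 2499 in the libraries of replicates 1 and 2. In CPM these are 723 and 686 (705 ± 26.6, SD, n = 2). Both libraries lay close together, and by mean CPM, per gene and not per length, Gm23450 stood at rank 113 of 2202 genes. Its reads were 89.8% and 89.5% of the reads of all 45 genes. The gene lies at chr7:3415066-3415156 on the plus strand, and all of its 91 bases are coding bases of Cacng8, which encodes a subunit that accompanies AMPA-type glutamate receptors. The hairpin is shown with bases 55 to 78, the mature mmu-miR-935, in capitals.
Gm23450: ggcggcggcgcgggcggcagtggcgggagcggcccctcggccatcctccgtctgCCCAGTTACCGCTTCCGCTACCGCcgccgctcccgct
No stretch of 20 bases of this hairpin occurs, on either strand, in an annotated transcript of a gene elsewhere. Counts were per gene, so the position of the reads within the hairpin was not measured.

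The other 5 genes with a RefSeq entry had few reads, 5 in replicate 1 and 22 in replicate 2 in all. Gm22650, in an intron of the serotonin receptor gene Htr2c (chrX:146999405-146999509), had 4 and 14 reads. Its Mir-named neighbours in the same gene, listed here, had fewer reads in replicate 1 than in replicate 2. Mir764, 2749 bases away, had 30 and 92 reads, Mir1264 had 46 and 311, and Mir1912 had 0 and 20. Mir448 had 32 and 380, and Mir1298 had 295 and 6497. Gm24627, which has a RefSeq entry and lies between Mir1298 and Mir448, had 0 reads in both libraries. Gm23363, opposite an intron of Dnm1, had 1 and 3 reads, and Mir199b on the same strand, 116 bases away, had 10 and 0. Gm38670, in an annotated exon of Hspb6, had 0 and 3 reads. Gm38671, in an exon of Mcf2l, and Gm24572, in the untranslated region (UTR) of Dgcr8, had 0 and 1 read each. Dgcr8 messenger RNA is known to carry hairpins that the Drosha and Dgcr8 complex cuts, and Mir1306, 232 bases from Gm24572, had 407 and 822 reads.

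Beside Gm23450, the remaining 44 genes had 240 reads in replicate 1 and 292 in replicate 2. All 45 genes together held 0.0805% and 0.0766% of all sense reads on miRNA genes (0.0786% ± 0.00279, SD, n = 2), and without Gm23450 the mean was 0.00810%. The summed count chose the genes, so these levels describe them and are not tested. Of the 45, 11 had a summed count of 1, just inside the limit, and 922 genes of the same naming had 0, just outside it. A summed count of at least 10 was reached by 14 genes, and 6 genes had at least 10 reads in each library. Reads in both libraries were found for 20 genes, in replicate 1 alone for 9 and in replicate 2 alone, the deeper library, for 16. The median summed count was 4.

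**Figure D1:**
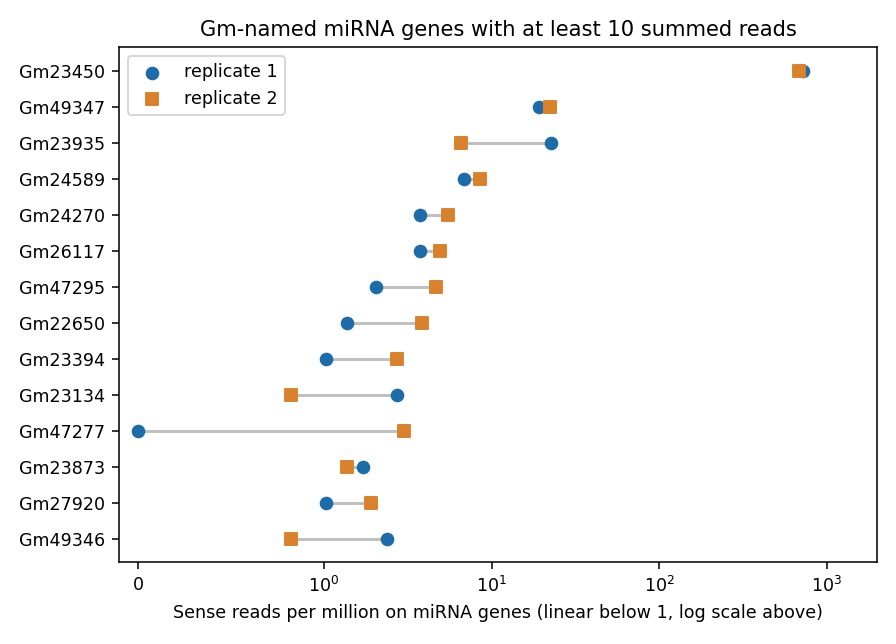
CPM of sense reads (horizontal axis, linear below 1 and log scale above) of the 14 genes with at least 10 summed reads, 1 row per gene, with 1 point per library. Gm23450 lies at 723 and 686, and no other gene of the 14 lies above 22.5.

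By genomic position the 45 genes fell into 5 classes. The exon class held 20 of them, each with at least 1 base in a same-strand exon of another gene. Some of these overlaps were partial, such as 17 of the 109 bases of Gm24197 in Mast1. Another 7 lay in an annotated snoRNA or misc_RNA gene on the same strand. Same-strand introns held 6, 6 lay only opposite another gene, and 6 overlapped no other gene. With Gm23450 set aside, genes in snoRNA and misc_RNA genes held 188 of the summed reads (35.3%), 137 of them from Gm49347 alone, those in introns 123 (23.1%), those opposite a gene 107 (20.1%), 90 of them from Gm23935, those in exons 101 (19.0%) and those with no other gene 13 (2.44%). The order differed between libraries: genes opposite another gene held 32.1% of these reads in replicate 1 and 10.3% in replicate 2, and genes in snoRNA and misc_RNA genes held 30.0% and 39.7%.

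Of the 7 genes in other small RNA genes, 4 lay in snoRNA genes, with 64 and 95 reads in all. Gm49347 (chromosome 18, 35557132 to 35557242, plus strand) overlaps Snora74a, a snoRNA of the class that guides pseudouridine formation, by 96 of its 111 bases. It had 56 and 81 reads, 19.1 and 22.2 CPM (20.7 ± 2.19, SD, n = 2), and so was present at a similar level in both libraries.

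**Figure D2:**
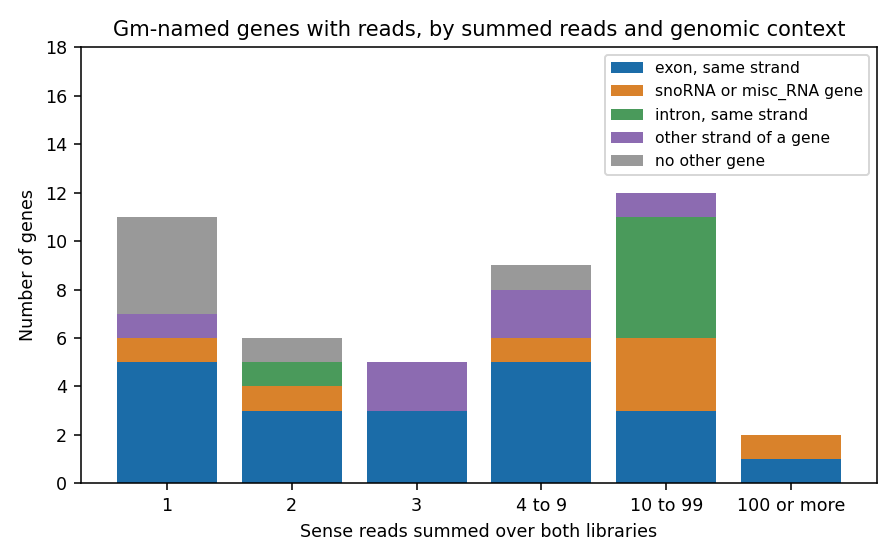
Number of genes (vertical axis) by sense reads summed over both libraries (horizontal axis, in classes), coloured by genomic position. The leftmost bar holds the 11 genes with 1 read, and the class of 100 or more holds Gm23450 (exon) and Gm49347 (snoRNA gene).

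The other 3 genes in snoRNA genes were lower. Gm49346 overlaps Snora81, in the host gene Eif4a2, by 103 of 106 bases and had 7 and 3 reads. Gm47284 shares 89 of 120 bases with Gm24888, a snoRNA gene within Rpl27a, and had 1 and 0 reads. Gm47277 (chr8:13876091-13876184, plus strand) had 0 reads in replicate 1 and 11 in replicate 2, so that it was seen in replicate 2 alone. It is shown with the 88 bases inside the snoRNA gene Gm24698 in capitals, because nearly all of the predicted hairpin is snoRNA.
Gm47277: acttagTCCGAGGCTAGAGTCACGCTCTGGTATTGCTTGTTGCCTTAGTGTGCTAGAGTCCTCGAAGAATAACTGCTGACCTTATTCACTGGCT

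Genes of type misc_RNA held another 3 of the 7, with 8 and 21 reads in all. Gm47295 overlaps Rn7s1, a 7SL RNA gene, by 77 of 79 bases and had 6 and 17 reads. The miRNA gene Gm24105 lies in a misc_RNA gene of the same symbol and had 0 and 4 reads, and Gm47294, in Gm23153, had 2 and 0. They share stretches of at least 20 bases with 5, 5 and 12 annotated genes elsewhere, so their counts per gene carry the same uncertainty of placement as other shared sequences. The whole hairpin of Gm47295 also occurs in the miRNA gene Gm47299, which had 0 reads in both libraries. A read that lies wholly inside this hairpin would thus have several equally good places.

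A single 57-base sequence accounted for 3 genes. Gm23935 (chromosome 16, opposite an intron of Zc3h7a), Gm24270 (chromosome 9, in an intron of Peak1) and Gm24245 (chromosome 4, in no other gene) are identical over their whole length. Gm25911 on chromosome 1 differs by G14A (Gm23935's base first, counted from its 5′ end) and lacks 1 base. The substituted base is in capitals.
Gm23935, Gm24270 and Gm24245: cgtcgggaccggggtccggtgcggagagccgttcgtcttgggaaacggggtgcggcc
Gm25911: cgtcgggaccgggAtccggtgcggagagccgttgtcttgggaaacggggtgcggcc
Gm23935 had 66 and 24 reads, Gm24270 had 11 and 20, Gm24245 had 1 and 0 and Gm25911 had 0 and 1. Gm23935 was thus higher in replicate 1 and Gm24270, with the same sequence, was not. Because reads with several equally good places were counted apart, a read that lies wholly inside the shared 57 bases would not have been given to any of the 3 genes. The genome beside the hairpins was not analysed here, so how reads came to be placed on single copies was not tested and the values per gene are uncertain. Ribosomal RNA sequences beyond the annotated transcripts were not compared with the 57 bases. A pair of further genes that share at least 20 bases with this sequence, Gm23388 and Gm24187, had 0 reads.

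Gm24589 fills an intron of Pkd1 from end to end. It lies at chr17:24594978-24595071 on the plus strand, its first base next to the end of an exon and its last base next to the start of an exon. A hairpin with this layout is known as a mirtron, which is freed by splicing and not by Drosha. The bases GT and AG at the intron's ends are in capitals.
Gm24589: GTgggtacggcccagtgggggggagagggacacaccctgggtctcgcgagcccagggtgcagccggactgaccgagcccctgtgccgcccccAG
It had 20 and 31 reads, 6.83 and 8.51 CPM (7.67 ± 1.19, SD, n = 2), alike in both libraries. The prediction folds it with 3 hairpin loops and not 1. No stretch of 20 bases was found in annotated transcripts elsewhere.

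Several genes carried part or all of a known mature miRNA of another locus. Gm23134, in an intron of Blcap on the strand opposite the imprinted gene Nnat, had 8 and 3 reads. It holds 22 of the 23 bases of mmu-miR-708-5p, from base 2 on, so that the whole seed is included. Mir708 itself, on chromosome 7, had 8068 and 9143 reads. Reads that fit both genes equally well were counted apart, so the counts of Gm23134 are uncertain as those of a single gene. The shared stretch and the mature sequence, with its seed in capitals, are as follows.
Gm23134, bases 22 to 43: aggagcttacaatctagctggg
mmu-miR-708-5p: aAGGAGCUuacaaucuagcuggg

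Also among the genes were 3 loci of the brain-expressed mir-344 cluster on chromosome 7, all on the minus strand. Gm23873 had 5 and 5 reads, Gm22466 had 2 and 0, and Gm24923 had 0 and 1. Of the 13 named genes of the cluster, 5 had reads. Mir344b led them with 117 and 283, followed by Mir344g with 19 and 10, Mir344f with 5 and 12, Mir344c with 1 and 7 and Mir344d-1 with 1 and 1. Capitals mark the stretch shared with a mature miRNA: 19 of 24 bases of mmu-miR-344d-1-5p in Gm23873, 16 of 20 of mmu-miR-344e-5p in Gm22466 and all 20 of mmu-miR-344i in Gm24923.
Gm23873, chr7:61750468-61750537: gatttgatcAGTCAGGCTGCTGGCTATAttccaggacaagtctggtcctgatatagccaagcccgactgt
Gm22466, chr7:61708705-61708773: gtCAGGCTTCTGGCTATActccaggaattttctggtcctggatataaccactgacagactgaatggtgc
Gm24923, chr7:62078718-62078805: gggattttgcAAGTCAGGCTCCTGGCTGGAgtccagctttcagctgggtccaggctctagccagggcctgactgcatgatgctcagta
In all 3 the shared stretch begins at base 1 of the mature miRNA, so the seed is inside it. Reads that fit a named copy equally well would be missing from both genes.

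Of the other genes with an exact mature sequence of another locus, Gm23358 (2 and 0 reads) holds mmu-miR-680, and Gm24049 and Gm26339 (0 and 1 read each) hold mmu-miR-690. Gm26339 also holds mmu-miR-3473b. These 3 genes share stretches of 20 bases with 112, 519 and 819 annotated genes elsewhere, so their counts are uncertain as single genes. Gm27322 and Gm47314, which overlap the UTRs of Smurf2 and Eif3j1, share such stretches with 350 and 383 genes and had 0 and 2 and 2 and 0 reads.

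Gm44456 (chr13:21924928-21925016, minus strand) had 0 and 7 reads and overlaps no other annotated gene. It holds the B box, the inner promoter motif of transfer RNA genes, given below as 11 bases in capitals; the search left the 8th and 9th of them free. Of all 2202 miRNA hairpins, searched on both strands, 3 (0.136%) hold this motif: Gm44456, n-TSaga9 and n-TStga1. The last pair share stretches of at least 20 bases with Gm44456 and are typed as miRNA genes in the annotation. n-TSaga9 had 17 and 32 reads, and n-TStga1 had 0 in both libraries.
Gm44456: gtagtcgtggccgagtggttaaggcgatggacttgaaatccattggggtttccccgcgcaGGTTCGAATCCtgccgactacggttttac

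UTRs of same-strand genes overlapped 12 of the 45, in whole or in part. These 12 had 23 reads in replicate 1 and 50 in replicate 2, and between 1 and 29 summed reads each. Gm26117, in the UTR of the adhesion receptor gene Adgrb1, led them with 11 and 18 reads, 3.76 and 4.94 CPM. Its 95 bases are 91.6% G and C, and stretches of it occur in 11 annotated genes elsewhere. Gm23394, in the UTR of Ralgapa1, had 3 and 10 reads. Gm27920 spans untranslated and coding bases of the deubiquitinase gene Usp15 and had 3 and 7 reads, and stretches of it occur in 17 annotated genes elsewhere. Gm25745, across the UTR and coding bases of the chaperone gene Hsp90b1, had 3 and 3.

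Gm25749 (chr3:80692203-80692313, minus strand) begins in coding bases of the AMPA receptor gene Gria2, runs past their end, and had 2 and 3 reads. Gria2 pre-mRNA is known to form a hairpin across an edge of exon and intron, where an adenosine is edited to inosine. The sequence is shown with its 29 coding bases in capitals.
Gm25749: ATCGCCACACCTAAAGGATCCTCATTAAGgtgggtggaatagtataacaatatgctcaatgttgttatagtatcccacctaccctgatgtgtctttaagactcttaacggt
A miRNA gene that shares at least 20 bases with it, Gm23811 on chromosome 9, had 0 reads. Gm24155, 791 bases from neuronal Mir137 on the same strand, had 5 and 1 reads, against 26682 and 46028 for Mir137. Of the 45 genes, 11 lay within 10000 bases of another miRNA gene on the same strand.

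None of the 45 genes lay opposite a named Mir gene, counted as an overlap of at least 1 base on the other strand. Of the 967 genes, 5 did lie so, and all 5 were among those with 0 sense reads. Gm25927 lies opposite Mirlet7e, Gm24083 opposite Mir191, Gm25301 opposite Mir378a, Gm24111 opposite Mirlet7f-1 and Gm25641 opposite Mir9-1. The 5 Mir genes had 129846 sense reads in replicate 1 and 173722 in replicate 2. At Mirlet7e alone, 82550 and 99559 reads faced 0 on Gm25927, and a count of 0 allows up to 0.00363% and 0.00301% of the reads of Mirlet7e. At Mir9-1, with 33 and 62 reads, the same limit is 9.09% and 4.84%, so little can be said there. Counted without strand, both genes of each pair had 0 reads, although the Mir genes had the sense reads given above. The count without strand therefore does not show that reads were absent at these pairs.

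**Figure D3:**
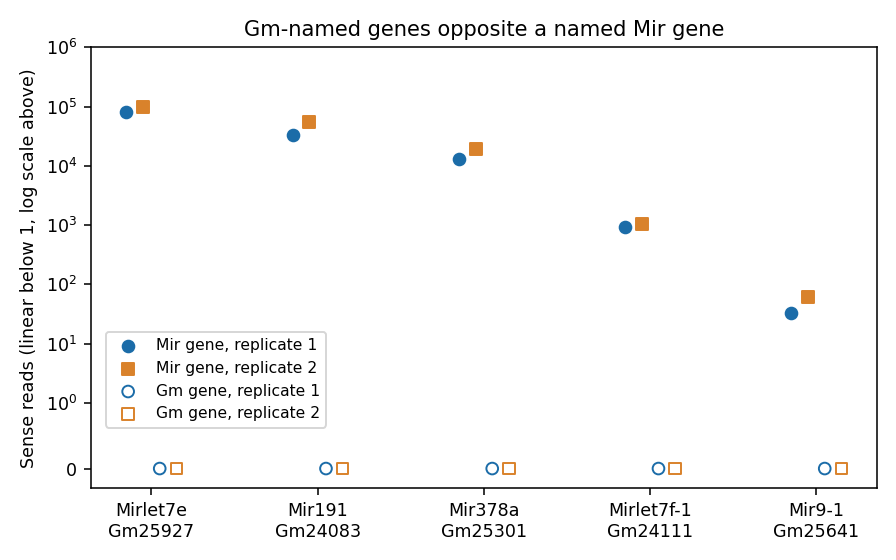
Sense reads (vertical axis, linear below 1 and log scale above) of the 5 named Mir genes that have a Gm-named gene on the other strand (filled points) and of those Gm-named genes (open points), by library. All open points lie at 0, while the filled points run from 33 for Mir9-1 to 99559 for Mirlet7e.

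Antisense reads at the 45 genes numbered 0 in replicate 1 and 1 in replicate 2, at Gm25262. Counts without strand equalled the sense counts in both libraries for the other 44.

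The hairpins of the 45 genes were compared with those of other groups as a description, with no test. Their median GC content was 60.4%, against 51.0% for the 922 Gm-named genes with no read and 53.0% for 673 Mir-named genes with reads. The predicted folding energy had a median of -38.7 kcal/mol per 100 bases, between the other Gm-named genes (-31.8) and the Mir-named genes with reads (-42.8). Energy falls with GC content in general, and its part here was not tested. A fold with a single hairpin loop, the usual shape of a miRNA precursor, was predicted for 25 of 45 (55.6%). That share was near the 56.9% of the Gm-named genes with no read and below the 95.2% of the Mir-named genes with reads. The 501 Mir-named genes with no read had a single loop in 91.8%. Their median energy was -37.6 kcal/mol per 100 bases, near that of the 45 genes, and their median GC content was 47.9%. Of the 6 genes with a RefSeq entry, 5 had a single loop, and of the 4 genes of the 57-base group none had.

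**Figure D4:**
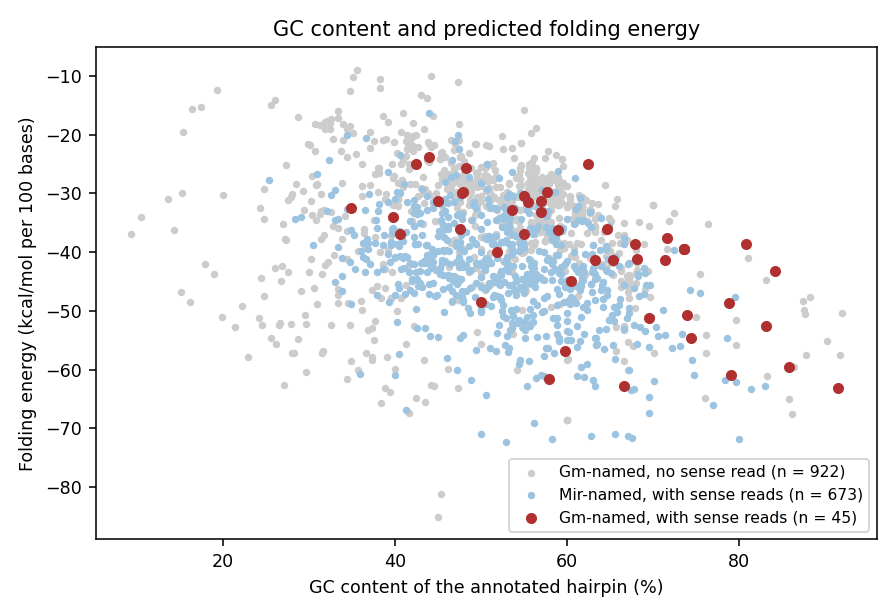
GC content (horizontal axis, percent) and predicted folding energy (vertical axis, kcal/mol per 100 bases) of each annotated hairpin, for Gm-named genes with reads, Gm-named genes with none, and Mir-named genes with reads. Several Gm-named genes with reads lie at high GC content, up to 91.6% for Gm26117.

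The share of genes with reads was also counted by the kind of sequence, as a description. Among the 967 genes, 6 of 11 with a RefSeq hairpin entry had a read, against 39 of 956 without (4.08%). The other 5 with an entry were Gm24195, Gm24627, Gm25641, Gm27775 and Gm27740, named after their values were seen. Of 777 genes that share 20 bases with a miRNA gene elsewhere, 21 (2.70%) had a read, against 24 of 190 (12.6%) that share none. Of 1174 Mir-named genes 673 (57.3%) had one. Reads with several places are missing from shared sequences, so a count of 0 there does not show absence.

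The libraries were compared on the split of each gene's reads, which the minimum of 1 summed read did not use. An exact binomial test, two-sided and with Benjamini-Hochberg adjustment, was run over all 474 miRNA genes with at least 10 summed reads. At an adjusted p under 0.05 it called 275 of them (58.0%), 31.6% of all tested as higher in replicate 2 and 26.4% as higher in replicate 1. Of the 14 Gm-named genes tested it called 2, 1 in each direction, and 2 had an unadjusted p under 0.05. Counts limit the calls: among the 198 genes with 10 to 137 summed reads, the range of the 13 Gm-named genes other than Gm23450, 51 (25.8%) were called, and so were 2 of the 13. The shares of 2 of 14 and 2 of 13 rest on few genes, and nothing particular to the Gm-named genes is read from them. The test compares the 2 libraries and not conditions, with counting error as its only noise.

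Gm23935 was called higher in replicate 1, with 66 reads against 24, 22.5 against 6.59 CPM. The ratio was 3.42-fold (exact 95% interval 2.12 to 5.71, exact binomial test, adjusted p = 1.6e-07). Its identical copy Gm24270 leaned the other way without a call, at a ratio of replicate 2 to replicate 1 of 1.46 (0.667 to 3.38). Gm47277, with 0 and 11 reads, was called higher in replicate 2 (exact binomial test, adjusted p = 0.0037). The exact 95% interval of its ratio has a lower limit of 2.02 and, with 0 reads in replicate 1, no upper one; its 11 reads set against the floor of 3 counts per library give 2.95-fold, with no error on the 11 reads. Neither difference has a replicate on either side.

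Gm23450 differed little: its ratio of replicate 2 to replicate 1 was 0.948 (exact 95% interval 0.894 to 1.01, exact binomial test, adjusted p = 0.11). The call hung on the scaling, with ratios of 0.926 under TMM (adjusted p = 0.019), 0.945 under DESeq2 size factors (adjusted p = 0.091) and 0.903 where the gene with most reads was kept out of the totals (adjusted p = 0.0014). Gm49347 was at a ratio of 1.16 (0.817 to 1.66) and Gm24589 at 1.25 (0.688 to 2.31). The other genes had wider intervals, all including 1, from Gm23134 at 0.301 (0.0515 to 1.26) to Gm22650 at 2.81 (0.883 to 11.7). Over the 14 genes, 9 pointed towards replicate 2 and 5 towards replicate 1, with a median log2 ratio of CPM + 1 of 0.30, against 0.04 over all 474 genes. Only 198 of the 474 have 10 to 137 summed reads, the range of 13 of the 14, so these medians are not of genes of like abundance. No lean of the Gm-named genes is read from them.

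**Figure D5:**
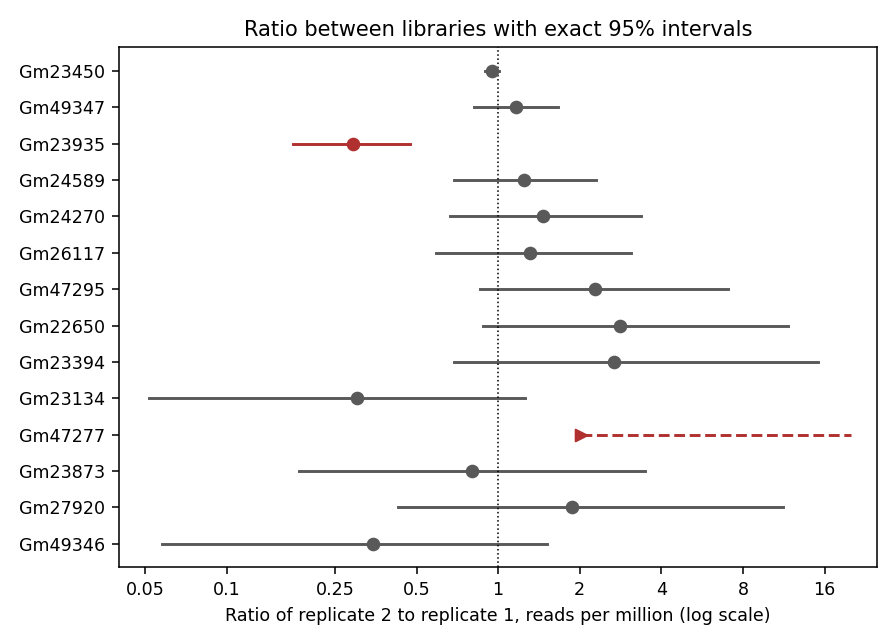
Ratio of replicate 2 to replicate 1 in CPM (horizontal axis, log scale) with exact 95% intervals for the 14 genes with at least 10 summed reads; genes called by the test are in red and the dotted line marks a ratio of 1. Gm23935 lies at 0.292, and the triangle with a dashed line starts at the lower limit of the interval of Gm47277 (2.02), which has no upper limit.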

How the data were processed

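As deposited, the values are raw counts (reads on each miRNA gene, with no normalization) in 3 unnamed columns per library, read here as without strand, sense and antisense. The assembly mm10 and GENCODE M21 are named in the deposited notes, and the aligner is not given in the sources used here. Another 4 rows per library name no gene. These rows, which took 69.5% of reads in replicate 1 and 65.3% in replicate 2, entered no total and no test. Sense counts were divided by their total to give CPM. Libraries were compared by an exact binomial test on both totals, two-sided (scipy 1.17.1), over genes with at least 10 summed reads, with Benjamini-Hochberg adjustment. A chi-square over genes of 390 times its degrees of freedom showed that both libraries differ by more than sampling noise. The test was tried on simulated counts with counting noise only, where 485 genes were tested. Among changed genes it called 62% at 1.5-fold, 68% at 2-fold, 98% at 4-fold and 100% at 8-fold, and 1.75% of the unchanged. The simulation lacked the further difference between the real libraries, so these rates hold for counting noise only.

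Symbols, positions, gene types, exons and hairpins came from GENCODE M21, and mature miRNAs from RefSeq. Hairpins were folded with RNAfold 2.7.2 at 37 °C. Shared sequence means a stretch of at least 20 bases, on either strand, in an annotated transcript of a gene that does not overlap. The text names each gene with at least 10 summed reads, each that lies opposite a Mir gene, each called, and each holding an exact mature sequence; other names were added once values were known. The members and lists were chosen with earlier results of these data known. Alternatives were other minimums, counts without strand, TMM (edgeR 4.0.16) and DESeq2 (1.42.0) scaling, and leaving out either replicate. Python 3.11.15, pandas 2.3.3, numpy 2.4.6, matplotlib 3.10.9 and R 4.3.3 were used.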

Additional observations from a re-analysis of the deposited data

How the results depend on the processing

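The number of Gm-named genes with reads depended on the minimum: 45 fell to 34 with at least 2 summed reads, to 20 with at least 1 read in each library and to 14 with at least 10 summed reads, and was 48 without strand. With either replicate left out it was 29 to 36. Their share of reads, 0.0786%, was 0.0849% without strand, 0.0894% where the gene with most reads was kept out of the totals, and 0.0766% to 0.0805% with a replicate left out. Added after the data were seen, it was 0.00810% without Gm23450 and 0.0757% without genes in snoRNA or misc_RNA genes. Genes with at least 10 reads, 6 in both libraries, were 6 to 10 with a replicate left out. Calls among the genes were 2 or 3, apart from 1 of 4 tested with at least 50 summed reads; the fall follows from the smaller number tested. Calls over all genes lay between 241 and 275. They split into 150 higher in replicate 2 and 125 in replicate 1, 135 and 133 under TMM, and 126 and 142 without the most abundant gene. Of 39 ratios over 13 single genes under 3 other scalings, 37 kept direction and call, 2 of Gm23450 gained a call, and 0 reversed. The count of 0 genes opposite a Mir gene already used an overlap of 1 base, so the larger overlaps listed could not change it. No paired analysis was possible because the series holds 1 group. Depth limits most of these genes: 31 of 45 had fewer than 10 summed reads.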

Other observations

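The Gm-named genes left out by position gave few reads. In the Dlk1-Dio3 region 4 of 6 lie opposite a named Mir gene: Gm24321 opposite Mir409, Gm25252 opposite Mir376a, Gm25750 opposite Mir380 and Gm44322 opposite Mir539. All 4 had 0 sense reads in both libraries, while the 4 Mir genes had 8390 and 12120. Gm27379 had 0 and 2 reads there, and of 48 genes inside Sfmbt2 only Gm22072 had any, 0 in replicate 1 and 1 in replicate 2.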
